A study of Mus musculus with 12 samples.

Results

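The sulfur and hydrogen sulfide genes Ethe1, Tst, Mpst, Sqor, Suox, Papss1, Papss2, Bpnt1 and Selenbp1 were followed in BV2 cells, an immortalized line of mouse microglia. These 9 genes of the 21834 in the count table were chosen by measured values, because the KEGG term sulfur metabolism stood out among genes raised by oxygen-glucose deprivation and reoxygenation (OGD/R, a culture model of ischemia and reperfusion) in the control line. The table lists 11 genes under that term, and 9 of them are the genes described here. The OGD/R values of the control line are therefore given as a description, and the test of these genes is the OGD/R comparison in the other line. The genes and lists were picked with earlier results of all these libraries known, so this test is not blind to the data.

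RNA was sequenced from a shCtrl line, which carried a control shRNA, and a shAnxa2 line, whose shRNA targets Anxa2, each left untreated (CTRL) or taken through 4 h of deprivation and 12 h of reoxygenation as the labels give it (OGDR), in 3 libraries per group and 12 in all. Every group, the controls included, had been transduced with lentivirus from the pLKO.1 vector and selected with puromycin as a stable line, and the knockdown rests on 1 shRNA. The paper's methods state another reoxygenation time for BV2 cells. The 3 libraries of a group are called biological replicates in the study, but the labels do not tie them to separate cultures, so the p-values measure the spread between these libraries.

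Total counts per library ranged from 19521877 to 27288843, and 11626 genes passed a filter that asked 3 or more libraries for 0.5 CPM (counts made relative to library size). Libraries were grouped by their titles, since a second label gives line and treatment in another way that goes against the titles. Anxa2, the targeted gene, had a mean of 172 CPM in shCtrl-CTRL and 279 CPM in shCtrl-OGDR, against means of 40.4 CPM in shAnxa2-CTRL and, after OGD/R, 19.6 CPM, so it matched the line in each title. No gene checks the treatment in the same way, and an exchange of the CTRL and OGDR labels within the shAnxa2 line would turn the sign of every OGD/R change given below for that line. A list of 12 hypoxia targets summed to 3740 to 4008 CPM in shCtrl-CTRL and 4805 to 5350 CPM in shCtrl-OGDR, but to 5029 to 5283 CPM in shAnxa2-CTRL and 3504 to 3577 CPM in shAnxa2-OGDR, so the list was higher after OGD/R in the control line and lower after OGD/R in the knockdown line. Anxa2 itself had a log2 fold change for OGD/R of 0.70 in shCtrl and −1.04 in shAnxa2. It was 4.25-fold lower in shAnxa2 than in shCtrl cells untreated and 14.2-fold lower after OGD/R. A response opposite to that of the control line and an exchange of the CTRL and OGDR labels cannot be told apart from the values here. All 12 microglial markers examined were detected, although Aif1, Cx3cr1, P2ry12 and Tmem119 stayed under 11 CPM, and the summed markers of astrocytes, of neurons and of fibroblasts were under 1 CPM in every library, with Aqp4, Snap25, Syt1 and Dcn at 0 throughout. Oligodendrocyte markers summed to 4.08 to 6.61 CPM, mostly from Mbp, and Mog was at 0. In bulk RNA of this kind, fewer cells of a type and less RNA per cell cannot be told apart.

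Hydrogen sulfide is made from cysteine and related substrates by Cbs, Cth and Mpst, and is studied as a mediator in inflammation and ischemia. In mitochondria Sqor oxidizes it and passes its sulfur to glutathione, Ethe1 oxidizes the resulting persulfide to sulfite, Tst moves sulfane sulfur between sulfite, thiosulfate and cyanide, and Suox oxidizes sulfite to sulfate with the help of the molybdenum cofactor. Sulfate is activated to PAPS by Papss1 or Papss2 for use by sulfotransferases, and Bpnt1 breaks down the PAP that they leave, while Selenbp1 oxidizes methanethiol and so releases hydrogen sulfide.

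Promoter sequences are shown for Selenbp1, Sqor and Mpst as examples of genes whose levels moved together across the 4 groups. Papss1 and Tst moved in the same way and are not shown. Mpst lies head to head with Tst. RefSeq (GRCm38.p6) held 13 promoters for 8 of the 9 genes, some of them overlapping. Each runs from 250 bases before to 50 bases after an annotated start, and capitals mark matches on either strand to ACGTG, the core of hypoxia response elements, TGACNNNGC, the core of antioxidant response elements, or a loose form of the NF-κB site (GGG and CC with 5 bases between them). They lie at chr3:94932833-94933132 (Selenbp1, plus strand), chr2:122771463-122771762 (Sqor, plus strand) and chr15:78406462-78406761 (Mpst, plus strand, the first of 3 Mpst promoters).
Selenbp1: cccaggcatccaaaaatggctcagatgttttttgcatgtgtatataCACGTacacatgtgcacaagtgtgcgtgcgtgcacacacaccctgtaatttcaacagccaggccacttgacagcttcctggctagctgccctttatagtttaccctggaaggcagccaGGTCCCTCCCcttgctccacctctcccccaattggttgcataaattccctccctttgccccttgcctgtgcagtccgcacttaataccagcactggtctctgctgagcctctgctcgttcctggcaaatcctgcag
Sqor: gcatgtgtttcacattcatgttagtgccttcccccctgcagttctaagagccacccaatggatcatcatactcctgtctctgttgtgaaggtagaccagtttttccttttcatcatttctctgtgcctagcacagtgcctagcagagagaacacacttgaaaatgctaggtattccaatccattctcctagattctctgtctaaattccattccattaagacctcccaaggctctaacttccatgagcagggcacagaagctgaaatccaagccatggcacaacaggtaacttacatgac
Mpst: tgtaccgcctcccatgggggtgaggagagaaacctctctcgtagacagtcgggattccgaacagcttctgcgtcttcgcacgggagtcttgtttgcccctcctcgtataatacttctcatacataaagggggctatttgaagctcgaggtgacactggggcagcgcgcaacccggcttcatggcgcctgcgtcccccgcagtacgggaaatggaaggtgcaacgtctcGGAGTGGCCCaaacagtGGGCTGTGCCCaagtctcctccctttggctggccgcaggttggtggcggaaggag

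The Selenbp1 window held 1 match to ACGTG and 1 to the NF-κB form, the Mpst window held 3 matches to the NF-κB form, some of which overlap, and none of the 3 motifs was in the Sqor window. ACGTG was present in 4 of the 13 promoters (those of Selenbp1, Suox, Papss1 and Papss2), against 19.6% of the 32851 promoters of the table. TGACNNNGC was present in 1 of the 13 (another Mpst promoter), against 12.4%, and the NF-κB form in 8 of the 13, against 50.8%. These matches describe the letters of the windows, and nothing here measured binding.

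**Figure D1:**
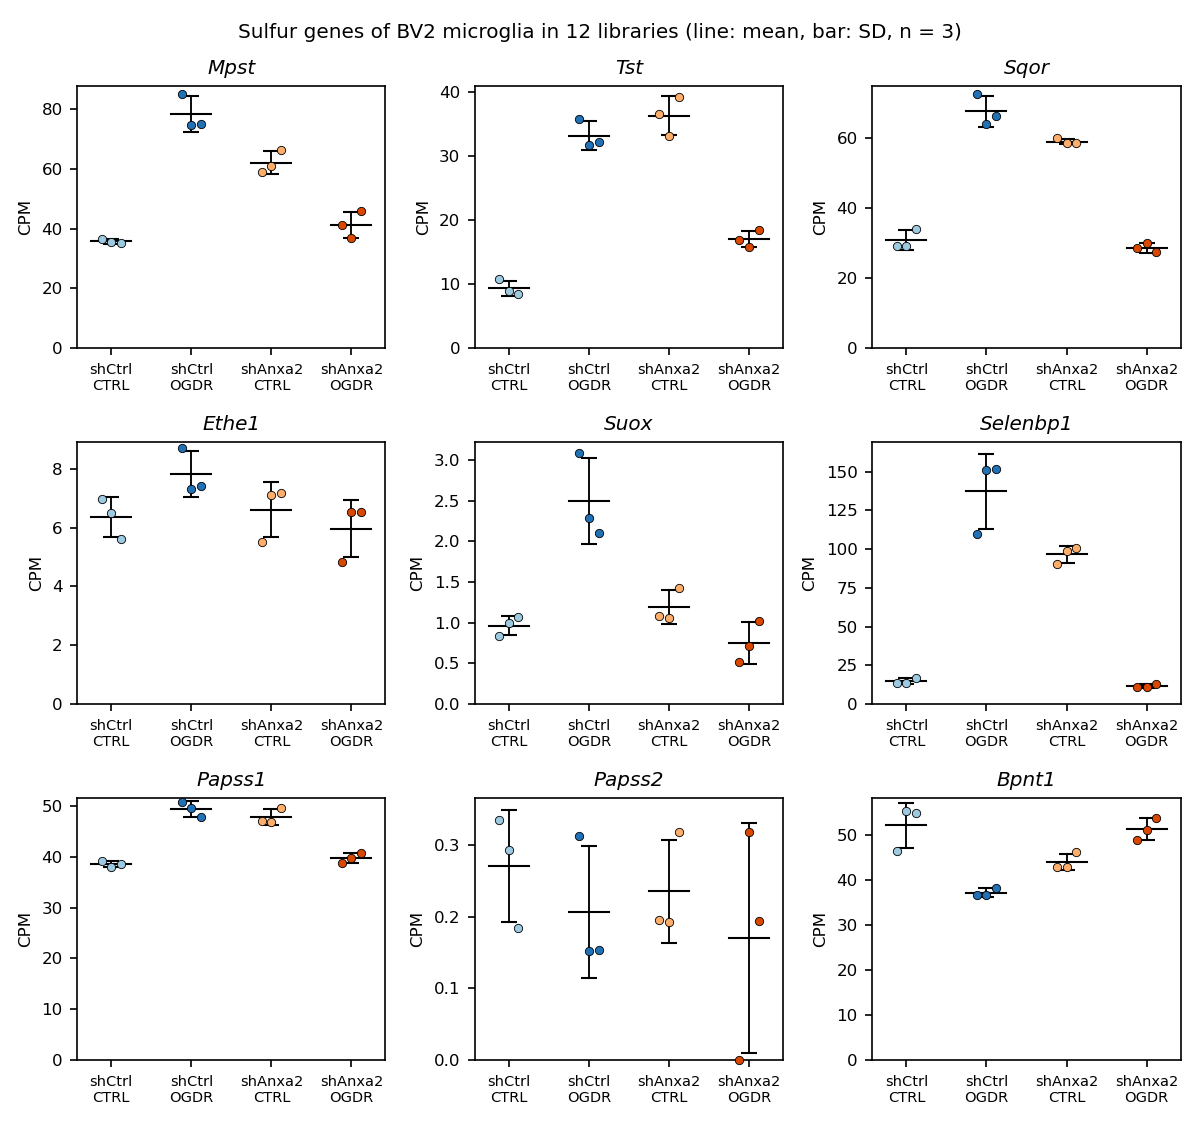
Levels of the 9 sulfur genes, in CPM (vertical axes, each on its own scale from 0), in the 3 libraries (points) of each group, with the mean (line) and SD (bar, n = 3). Selenbp1, Sqor, Tst, Mpst and Papss1 are high in shCtrl-OGDR and shAnxa2-CTRL and low in shCtrl-CTRL and shAnxa2-OGDR, Bpnt1 shows the opposite order, and Papss2 is under 0.4 CPM throughout.

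Of the 8 sulfur genes that passed the filter, 5 fell after OGD/R in shAnxa2 cells (Selenbp1, Tst, Sqor, Mpst and Papss1), 1 rose (Bpnt1), and Ethe1 and Suox did not pass the test. Genes were tested by quasi-likelihood in edgeR, with p adjusted over all genes (Benjamini-Hochberg) and a limit of 0.05 on adjusted p. In this comparison 55.0% of all genes tested passed (were called). As shares of all genes tested, 28.2% were higher and 26.8% lower. The 6 calls in 8 genes thus stand against a background where most genes were called. The median log2 fold change of the 8 genes was −0.63, against 0.00 for all genes tested. Papss2 did not pass the filter, so these counts do not cover it.

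Selenbp1 (ENSMUSG00000068874, chr3:94840367-94852069 in mm39) showed the widest range. Its level was 90.6, 98.7 and 101 CPM in the shAnxa2-CTRL libraries and 11.0, 10.8 and 12.8 CPM in the shAnxa2-OGDR libraries. The groups were far apart, and Selenbp1 was 8.40-fold lower after OGD/R (log2 fold change −3.07 ± 0.11 SE, n = 3 and 3, edgeR adjusted p = 9.03e-16). Control cells held it at 13.5, 13.9 and 17.1 CPM untreated and 110, 151 and 152 CPM after OGD/R. These values lie the other way round, with a log2 fold change of 3.21 ± 0.11 SE. The first shCtrl-OGDR library was the lowest of its group and still far above every untreated control library.

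Selenbp2 (ENSMUSG00000068877), a close paralog of Selenbp1 on the same chromosome, was measured at 4.30, 4.96 and 4.13 CPM in shAnxa2-CTRL and 1.22, 0.994 and 1.02 CPM in shAnxa2-OGDR. It fell as well (log2 fold change −2.05 ± 0.21 SE, edgeR adjusted p = 1.92e-08). In the control line it was higher after OGD/R (2.34 ± 0.16 SE), given as a description. The further genes of the KEGG term are not named here and may include Selenbp2. The values of this pair are uncertain where reads match both genes, since the sources used here do not say how such reads were counted.

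Tst (ENSMUSG00000044986, chr15:78283756-78290107, minus strand, mm39) was 36.4, 33.1 and 39.2 CPM in shAnxa2-CTRL and 16.8, 15.8 and 18.3 CPM in shAnxa2-OGDR. The groups did not overlap, and Tst was 2.14-fold lower after OGD/R (log2 fold change −1.10 ± 0.09 SE, edgeR adjusted p = 4.30e-10). The control line had 10.7, 8.83 and 8.46 CPM untreated and 35.7, 31.6 and 32.1 CPM after OGD/R, a log2 fold change of 1.83 ± 0.09 SE. The values of untreated shAnxa2 cells overlapped those of shCtrl cells after OGD/R.

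Mpst (ENSMUSG00000071711, chr15:78290616-78298213, plus strand, mm39) starts 508 bases from Tst and runs the other way, without overlap. It makes a persulfide from mercaptopyruvate, from which hydrogen sulfide is released. Mpst was 58.8, 61.0 and 66.3 CPM in shAnxa2-CTRL and 41.1, 36.9 and 45.8 CPM in shAnxa2-OGDR. No library of one group reached the other, and Mpst was 1.51-fold lower after OGD/R (log2 fold change −0.59 ± 0.07 SE, edgeR adjusted p = 2.54e-07). Control cells had 36.5, 35.5 and 35.1 CPM untreated and 85.3, 74.7 and 74.9 CPM after OGD/R, a log2 fold change of 1.13 ± 0.07 SE.

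The share of Tst in the summed counts of Tst and Mpst needs no library size. It was 38.2%, 35.1% and 37.2% in shAnxa2-CTRL and 29.0%, 30.0% and 28.6% in shAnxa2-OGDR, from 1134 to 2657 summed counts per library. The difference, OGDR minus CTRL, was −7.66 percentage points, with an exact two-sided permutation p of 0.1, the smallest that 3 against 3 libraries can give. Among control libraries the share was 19.4% to 22.6% untreated and 29.5% to 30.0% after OGD/R, as a description.

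**Figure D2:**
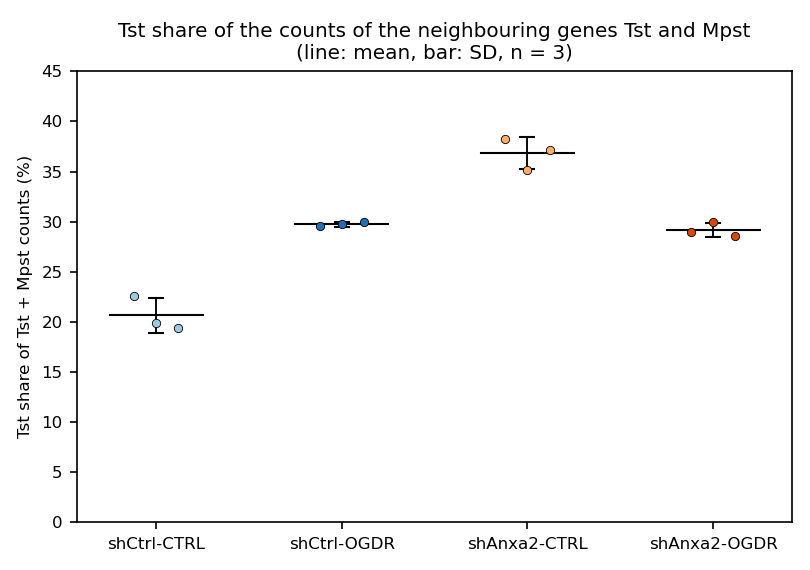
Share of Tst in the summed counts of Tst and Mpst (vertical axis, percent) in the 3 libraries (points) of each group, with the mean (line) and SD (bar, n = 3). The shAnxa2-CTRL libraries are the highest at 35.1% to 38.2%, the shCtrl-CTRL libraries the lowest at 19.4% to 22.6%, and both OGDR groups lie between 28.6% and 30.0%.

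Sqor (ENSMUSG00000005803, chr2:122607157-122651489, mm39), the mitochondrial quinone oxidoreductase for sulfide, was 59.9, 58.7 and 58.5 CPM in shAnxa2-CTRL and 28.6, 30.1 and 27.3 CPM in shAnxa2-OGDR. The libraries of each group were close together and the groups far apart, and Sqor was 2.06-fold lower after OGD/R (log2 fold change −1.04 ± 0.07 SE, edgeR adjusted p = 1.66e-11). Among control libraries Sqor was 29.0, 29.3 and 34.1 CPM untreated and 72.6, 64.0 and 66.3 CPM after OGD/R, a log2 fold change of 1.13 ± 0.07 SE.

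Ethe1 (ENSMUSG00000064254, chr7:24286968-24308350, mm39), the persulfide dioxygenase that acts after Sqor, moved little. It was 5.53, 7.12 and 7.19 CPM in shAnxa2-CTRL and 4.85, 6.52 and 6.55 CPM in shAnxa2-OGDR. The groups overlapped, and the difference did not pass the test (log2 fold change −0.14 ± 0.15 SE, 95% interval −0.43 to 0.14, edgeR adjusted p = 0.419). Control cells had Ethe1 at 6.98, 6.49 and 5.62 CPM untreated and 8.72, 7.33 and 7.43 CPM after OGD/R, without overlap and with a log2 fold change of 0.30 ± 0.14 SE.

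Suox (ENSMUSG00000049858, chr10:128505763-128509942, minus strand, mm39), sulfite oxidase, rests on few reads. It had 22, 22 and 36 counts in shAnxa2-CTRL (1.08, 1.06 and 1.43 CPM) and 10, 18 and 21 counts in shAnxa2-OGDR (0.510, 0.715 and 1.02 CPM). The groups did not overlap but came close, and the log2 fold change of −0.68 ± 0.31 SE (95% interval −1.29 to −0.06, unadjusted) did not pass the test after adjustment (edgeR adjusted p = 0.07). Without shAnxa2-OGDR replicate 3 it passed (log2 fold change −0.94, adjusted p = 0.0299), and over all alternatives its adjusted p ranged from 0.0299 to 0.246. The control libraries of Suox had 20 to 29 counts untreated and 41 to 79 counts after OGD/R, a log2 fold change of 1.37 ± 0.25 SE.

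The genes of sulfate activation changed less. Papss1 (ENSMUSG00000028032, chr3:131270529-131349432, mm39) was 46.9, 46.9 and 49.6 CPM in shAnxa2-CTRL and 38.7, 39.8 and 40.6 CPM in shAnxa2-OGDR. The groups did not overlap, and Papss1 was 1.21-fold lower after OGD/R (log2 fold change −0.27 ± 0.06 SE, edgeR adjusted p = 0.000339). The control line had 39.1, 37.9 and 38.6 CPM untreated and 50.8, 49.6 and 47.8 CPM after OGD/R, a log2 fold change of 0.36 ± 0.06 SE.

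Papss2 (ENSMUSG00000024899, chr19:32573190-32644587, mm39) encodes the other PAPS synthase and was barely detected. It had 8, 8 and 5 counts in shCtrl-CTRL, 8, 4 and 3 in shCtrl-OGDR, 4, 4 and 8 in shAnxa2-CTRL and 0, 8 and 4 in shAnxa2-OGDR. At this depth no difference between the groups was detectable, and Papss2 took under 1% of the summed Papss counts in every library. The difference in its share in shAnxa2 cells, OGDR minus CTRL, was −0.064 percentage points, with an exact two-sided permutation p of 0.9, and leaving out 1 library moved this difference between −0.25 and 0.15 points.

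Bpnt1 (ENSMUSG00000026617, chr1:185064346-185089974, mm39), the phosphatase that clears PAP, went the other way from the rest. It was 42.9, 42.9 and 46.1 CPM in shAnxa2-CTRL and 48.9, 51.1 and 53.7 CPM in shAnxa2-OGDR. The groups did not overlap, and Bpnt1 was 1.17-fold higher after OGD/R (log2 fold change 0.22 ± 0.07 SE, edgeR adjusted p = 0.00758). In the control line it was 46.4, 55.3 and 54.8 CPM untreated and 36.6, 36.6 and 38.3 CPM after OGD/R, a log2 fold change of −0.49 ± 0.07 SE.

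**Figure D3:**
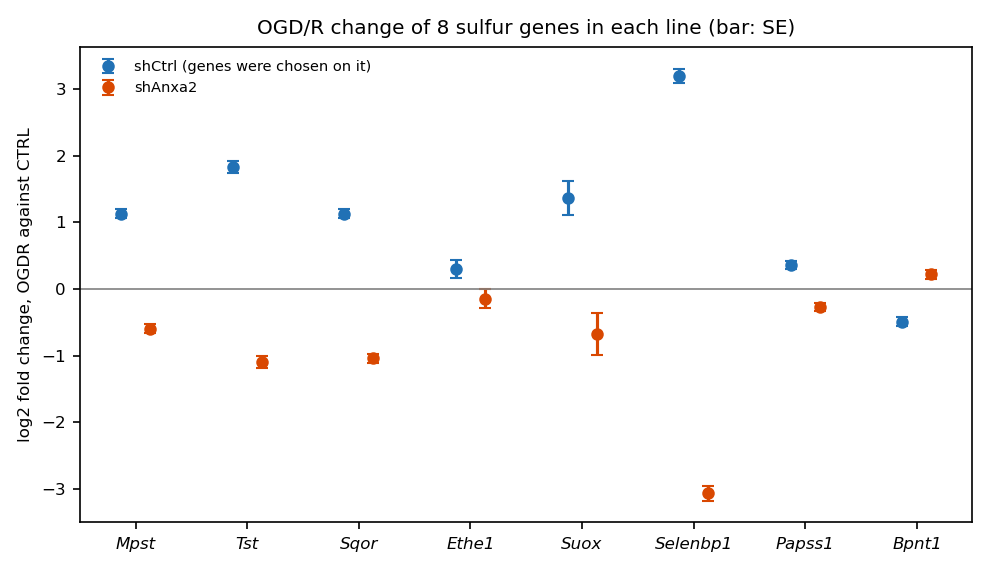
Log2 fold change of OGDR against CTRL (vertical axis) with its standard error (bar) for 8 sulfur genes in the shCtrl line (blue, the values on which the genes were chosen) and the shAnxa2 line (orange). Each gene lies on opposite sides of 0 in the lines, from −3.07 against 3.21 for Selenbp1 to −0.14 against 0.30 for Ethe1.

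In the control line 7 of the 8 genes were past the same limit after OGD/R (6 higher and Bpnt1 lower, with Ethe1 not past it), and 63.4% of all genes tested were. Nothing is read from this count, because the genes were chosen on this comparison. The median log2 fold change of the 8 genes there was 1.13. The OGD/R changes of the 2 lines share no library, and the difference between them was not tested for these genes.

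The comparisons between the lines share the shCtrl libraries with the choice of the genes and are likewise a description. Untreated, 6 of the 8 genes were past the limit between shAnxa2 and shCtrl cells (5 higher and 1 lower in shAnxa2), where 59.2% of all genes tested were. Selenbp1 had the widest log2 difference at 2.70 ± 0.11 SE, followed by Tst at 1.96 ± 0.09 SE, Sqor at 0.94 ± 0.07 SE and Mpst at 0.80 ± 0.07 SE. After OGD/R all 8 were past it (1 higher and 7 lower in shAnxa2), where 67.9% of all genes tested were, but Ethe1 was not past it without replicate 1 of either OGDR group. The log2 difference was then −3.58 ± 0.11 SE for Selenbp1, −1.74 ± 0.27 SE for Suox, −1.24 ± 0.07 SE for Sqor, −0.97 ± 0.09 SE for Tst, −0.93 ± 0.07 SE for Mpst and 0.47 ± 0.07 SE for Bpnt1.

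The order of the levels also differed by group when CPM was divided by exon length in kb, the scale on which genes can be compared. Bpnt1 led in shCtrl-CTRL at 22.6 ± 2.16 CPM per kb (SD, n = 3), followed by Mpst at 16.7 ± 0.358 and Papss1 at 12.6 ± 0.206. Sqor at 7.55 ± 0.706 and Selenbp1 at 6.52 ± 0.868 overlapped in their spread. Such overlap, here and below, leaves aside that the genes were measured in the same libraries, and is no test of their order. Ethe1, Tst, Suox and Papss2 followed at 4.29, 2.95, 0.386 and 0.0727 CPM per kb. In shCtrl-OGDR Selenbp1 led at 60.5 ± 10.6 CPM per kb ahead of Mpst at 36.5 ± 2.82. Sqor, Papss1 and Bpnt1, at 16.6, 16.2 and 16.1, overlapped in their spread.

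In shAnxa2-CTRL the order again began with Selenbp1 at 42.5 ± 2.34 CPM per kb and Mpst at 29.0 ± 1.80, and Bpnt1 came next at 19.1 ± 0.803. In shAnxa2-OGDR Bpnt1 at 22.2 ± 1.04 CPM per kb and Mpst at 19.3 ± 2.08 overlapped in their spread. Tst at 5.36 ± 0.407, Selenbp1 at 5.07 ± 0.488 and Ethe1 at 4.02 ± 0.656 overlapped from each to the next in that group. Suox and Papss2 were the lowest of the 9 genes in all 4 groups.

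Cbs and Cth, the other classical enzymes of hydrogen sulfide production, were near the limit of detection. Cbs had 0 to 10 counts per library and 36 in all, and Cth had 0 to 2 counts per library and 5 in all, so neither was tested. Mpst, the third classical source, had 805 to 2180 counts per library.

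A wider set of 65 other sulfur genes in 7 functional lists was examined around these genes, and 49 of them passed the filter. After OGD/R in shAnxa2 cells 28 of the 49 were called, 14 higher and 14 lower, with a median log2 fold change of −0.06, which is a share near the 55.0% of all genes. With upper-quartile normalization the same number split into 10 higher and 18 lower, and without shAnxa2-OGDR replicate 3 the calls were 9 higher and 15 lower. For OGD/R in control cells 32 of the 49 were called, 19 higher and 13 lower (19 and 8 without shCtrl-CTRL replicate 3). This is near the 63.4% of all genes tested that were called there. Between the lines 30 were called untreated, 20 of them higher in shAnxa2, and 33 after OGD/R, 15 of them higher. These counts too are near the shares of all genes tested, 59.2% untreated and 67.9% after OGD/R.

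In the list of other genes linked to hydrogen sulfide production, directly or not, all 4 genes tested were called after OGD/R in shAnxa2 cells. Of these 2 were higher and 2 lower, where 55.0% of all genes tested were called. Cars2, the mitochondrial cysteinyl-tRNA synthetase, which also makes cysteine persulfide, rose from 13.0 to 13.5 CPM in shAnxa2-CTRL to 17.9 to 19.2 CPM in shAnxa2-OGDR (log2 fold change 0.47, edgeR adjusted p = 9.26e-05) and fell in the control line (−0.66, adjusted p = 1.14e-06). Dao, D-amino acid oxidase, fell in shAnxa2 cells (−0.64, adjusted p = 0.0412) at a mean of 1.39 CPM, and lost this call when any of 4 libraries was left out (replicate 1 or 3 of either shAnxa2 group, adjusted p 0.0668 to 0.145). Its adjusted p in shAnxa2 cells ranged from 0.0265 to 0.145 over all alternatives. In the control line Dao had the same sign and did not pass (log2 fold change −0.48, edgeR adjusted p = 0.175).

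Of the 2 genes tested for cysteine oxidation, Ado, a thiol dioxygenase, rose (log2 fold change 0.22, edgeR adjusted p = 0.000649), and Csad did not pass the test at −0.22. In the control line Ado did not pass (0.02, adjusted p = 0.753), and Csad rose (0.73, adjusted p = 3.46e-06). Of the 5 genes for the molybdenum cofactor on which Suox depends, Mocs3 rose, and Mocos and Gphn fell, where 55.0% of all genes tested were called. Mocos, which matures the cofactor of other enzymes, had a log2 fold change of −0.48 (adjusted p = 0.000393) in shAnxa2 cells and of 0.75 in the control line. Gphn, gephyrin, which inserts molybdenum, had −0.25 (adjusted p = 0.00345) and 0.35.

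Among 4 other sulfur-transfer and phosphate enzymes tested, Selenbp2 fell and Tstd2, a rhodanese-domain gene, rose (log2 fold change 0.19, edgeR adjusted p = 0.0402). Tstd2 lost its call without any of 4 libraries (replicate 2 or 3 of shAnxa2-CTRL, replicate 1 or 3 of shAnxa2-OGDR) and with other normalization or tests, with an adjusted p of 0.011 to 0.263 over all alternatives. Bpnt2, the Golgi relative of Bpnt1, did not pass the test at 0.08.

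Of 7 transporters of sulfate and PAPS tested, 3 rose and 2 fell, where 55.0% of all genes tested were called. Slc25a10, a mitochondrial dicarboxylate carrier that also moves sulfate and thiosulfate, rose from 106, 117 and 124 CPM to 153, 141 and 171 CPM (log2 fold change 0.42, edgeR adjusted p = 4.33e-06). Slc26a1, a sulfate exchanger, rose by a log2 fold change of 0.52 (adjusted p = 0.0392), and lost this call without shAnxa2-CTRL replicate 1 or shAnxa2-OGDR replicate 3, with an adjusted p of 0.0112 to 0.310 over all alternatives. Slc35b2, which carries PAPS into the Golgi, rose by 0.38 (adjusted p = 2.31e-06). In the control line Slc25a10 (−0.03, edgeR adjusted p = 0.71) and Slc35b2 (−0.07, adjusted p = 0.266) did not pass. Slc26a1 fell there (−0.52, adjusted p = 0.027).

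The sulfotransferases, which spend PAPS, were called in 8 of 16 genes tested, 4 higher and 4 lower, which is near the 55.0% of all genes tested. Ndst1, which starts the sulfation of heparan sulfate, was 129, 128 and 112 CPM in shAnxa2-CTRL and 63.5, 68.9 and 69.3 CPM in shAnxa2-OGDR, a fall without overlap (log2 fold change −0.87 ± 0.06 SE, edgeR adjusted p = 1.40e-11). Control cells showed a rise of 0.83 ± 0.06 SE (adjusted p = 4.03e-12). Sult1c2, a cytosolic sulfotransferase, fell in shAnxa2 cells from 76, 69 and 43 counts to 20, 22 and 20 counts (−1.59, adjusted p = 8.71e-05).

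Of 11 sulfatases and their activators tested, 2 rose and 3 fell, where 55.0% of all genes tested were called. Sulf2, which removes sulfate from heparan sulfate outside the cell, was 82.1, 74.7 and 82.0 CPM in shAnxa2-CTRL and 126, 115 and 131 CPM in shAnxa2-OGDR, a rise without overlap (log2 fold change 0.64 ± 0.06 SE, edgeR adjusted p = 2.35e-09). Control cells showed a fall (−0.69 ± 0.06 SE, adjusted p = 4.66e-10). Sumf2, a relative of the sulfatase-activating enzyme, rose in shAnxa2 cells by 0.48 (adjusted p = 2.24e-07). The lysosomal sulfatases Arsa, Arsg and Galns fell, by 0.33, 0.31 and 0.18 on the log2 scale.

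**Figure D4:**
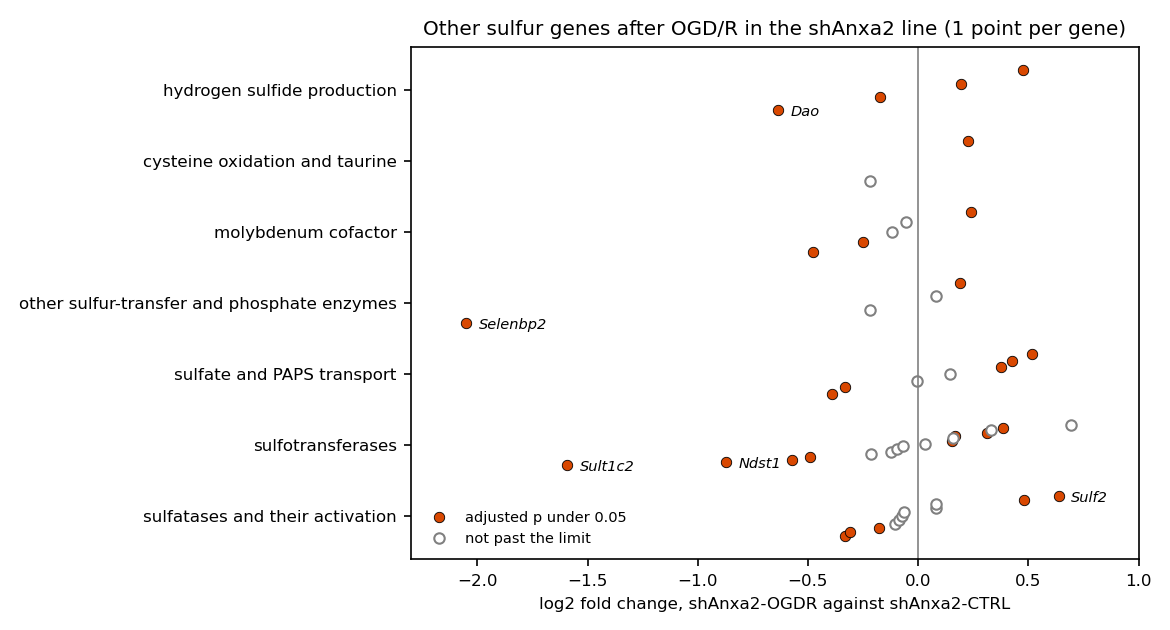
Log2 fold change of shAnxa2-OGDR against shAnxa2-CTRL (horizontal axis) for the 49 other sulfur genes tested, 1 point per gene, in 7 functional lists (rows, with a vertical spread only to separate points). Filled points passed an adjusted p of 0.05 (edgeR), open points did not, and called genes beyond 0.6 in either direction are named. In all 14 genes were higher and 14 lower, with Selenbp2 (−2.05) and Sult1c2 (−1.59) the farthest from 0.

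Across the 12 libraries the levels of most of the sulfur genes resembled each other, which describes 4 groups of 3 and carries no test. The shCtrl libraries on which the genes were chosen are among the 12, so the resemblance is not independent of that choice. The Pearson correlation of log2(CPM + 0.1) was 0.98 between Sqor and Selenbp1, 0.97 between Mpst and Papss1 and 0.92 between Tst and Mpst. Between Tst and Suox it was 0.58. Bpnt1 was negatively correlated with each of the others, from −0.59 with Ethe1 to −0.89 with Mpst. Ethe1 resembled the rest least, with correlations of 0.43 to 0.78 with those that were positive.

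Among all genes tested, the pattern most like that of Selenbp1 was that of Ndrg1 (r = 0.996), a member of the hypoxia list above. The nearest genes to the others were Klc2 for Tst (0.992), Inpp5k for Mpst (0.992), Aldh18a1 for Sqor (0.99), Ccnb2 for Papss1 (0.995), Shkbp1 for Suox (0.974), Fmnl3 for Bpnt1 (0.973) and Cdk15 for Ethe1 (0.867). How common such values are differs by gene, and the libraries share their groups. Of 11625 genes compared, 339 (2.92%) were correlated with Selenbp1 above 0.95. The number was 328 with Sqor, 240 with Mpst, 231 with Papss1 and 170 with Tst, against 14 with Suox, 8 with Bpnt1 and 0 with Ethe1. In the hypoxia list 9 of 11 genes tested fell and 0 rose after OGD/R in shAnxa2 cells, where 26.8% of all genes tested were lower and 28.2% higher. In the control line 9 rose and 1 fell, where 63.4% of all genes tested were called in either direction. The part of hypoxia in the values of the sulfur genes was not tested.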

How the data were processed

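RNA of BV2 cells was sequenced in 12 libraries, 3 in each of 4 groups taken from the sample titles. The authors deposited read counts per gene without normalization, and 12 further columns of normalized values were not used here. The submitters' processing notes name HISAT2 2.0.4 and the build mm39, and the counting tool and strand setting for these cells are not given in the sources used here. Counts were analysed with edgeR 4.0.16 in R 4.3.3: 11626 genes reached 0.5 CPM in 3 or more libraries, their counts were scaled by TMM, and a quasi-likelihood model of the 12 libraries gave p-values adjusted by Benjamini-Hochberg. The steps were tested on simulated counts. The 9 sulfur genes and the wider lists were chosen with earlier results of these data known. Besides them, Anxa2, Cbs and Cth were named, with the 2 genes per list of largest change after OGD/R in shAnxa2 (adjusted p under 0.05, mean of at least 1 CPM) and the gene most correlated with each sulfur gene; Csad, Mocs3, Bpnt2, Slc35b2, Arsa, Arsg and Galns were named after their values were seen. Exon lengths came from GENCODE M21 (GRCm38) by gene identifier. Alternatives were other scaling and filters, DESeq2 1.42.0, voom of limma 3.58.1, a replicate block, fits with 2 groups, a log2 limit of 1 and leaving out each library. Python 3.11.15 drew the plots.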

Additional observations from a re-analysis of the deposited data

Results flagged for a closer look

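The OGD/R changes of several sulfur genes went opposite ways in the lines. In both lines every library of one treatment lay on 1 side of every library of the other. How many of all genes tested did so was not counted, so nothing particular to the sulfur genes is read from this. For OGD/R 55.0% of all genes tested were called in shAnxa2 and 63.4% in shCtrl. The change in shAnxa2 minus that in shCtrl, on the log2 scale, was −6.28 for Selenbp1, −2.93 for Tst, −2.17 for Sqor, −2.05 for Suox, −1.73 for Mpst, −0.63 for Papss1 and 0.71 for Bpnt1. These differences were not tested, because the genes were chosen on the control line.

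For Anxa2 and the named genes of the wider lists the difference was tested as an interaction term of edgeR. An adjusted p of 0.05 was passed by 13 of 14 genes. The share of all genes tested that pass this term was not counted, so this count has no background to stand against. The list genes were named for their change in shAnxa2, which is 1 arm of the difference, so these tests are not independent of that choice. Selenbp2 may also belong to the KEGG term, in which case its control arm entered the choice of the term. The difference was negative for Selenbp2 (−4.39), Sult1c2 (−3.72), Anxa2 (−1.74), Ndst1 (−1.71), Mocos (−1.23) and Gphn (−0.60). It was positive for Sulf2 (1.33), Sumf2 (1.17), Cars2 (1.13), Slc26a1 (1.04), Tstd2 (0.50), Slc25a10 (0.45) and Ado (0.21). Dao did not pass (−0.15, edgeR adjusted p = 0.754).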

How the results depend on the processing

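Total counts of called genes stayed within 1.5 times under every alternative except an added log2 limit of 1. With it the sulfur genes called were 3 for OGD/R in shAnxa2, 2 between the untreated lines and 3 between the lines after OGD/R, and the wider list gave 2 for OGD/R in either line, 3 untreated and 3 after OGD/R. Leaving out 1 library gave 6 to 7 sulfur genes for OGD/R in shAnxa2, 7 to 8 in shCtrl, 6 untreated and 7 to 8 after OGD/R. The wider list then gave 24 to 27, 27 to 31, 28 to 30 and 28 to 33, the Tst share −8.51 to −6.96 points and the Papss2 share −0.249 to 0.147 points. The wider list gave 9 higher and 15 lower for OGD/R in shAnxa2 without shAnxa2-OGDR replicate 3, and 19 and 8 in shCtrl without shCtrl-CTRL replicate 3. For single sulfur genes 438 values kept direction and call. Suox gained a call in 1. Ethe1 gained one in 5 for OGD/R in shCtrl, lost it in 2 between the lines after OGD/R (without replicate 1 of either OGDR group) and changed sign in 2 between the untreated lines (−0.014 and −0.0043, without replicate 3 of either CTRL group). For the other named genes 735 kept both, 38 lost and 8 gained a call, and 2 changed sign, neither past the limit. These were Ado for OGD/R in shCtrl without shCtrl-OGDR replicate 2 (−0.0012, with −0.0012 to 0.053 over the libraries left out) and Mocos between the lines after OGD/R without shCtrl-OGDR replicate 3 (0.072, with −0.15 to 0.072). Their cause was not tested.

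The labels do not say that equal replicate numbers pair libraries, and in the shAnxa2 line equal numbers correlated at 0.024, 0.044 and 0.13. With a replicate block 6 sulfur genes and 29 of the wider list were called for OGD/R in shAnxa2. Depth limits Papss2, Cbs, Cth and Suox.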
